A study of Mus musculus with 4 samples.

Results

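Glycolysis and the pentose phosphate pathway were followed through 38 genes, chosen by symbol from the 54446 genes of the expression table. They encode the enzymes from hexokinase to lactate dehydrogenase, the PFKFB enzymes that regulate phosphofructokinase, a lactate exporter and the mitochondrial entry of pyruvate. Also included are the enzymes of the pentose phosphate pathway, fructose-bisphosphatase and the glycerol phosphate shuttle. Enolase, the step between phosphoglycerate mutase and pyruvate kinase, is not among them. All 38 names were found, in 39 rows, because Aldoa has a second entry at its locus. Of these rows, 32 (for 31 names) had a mean over the 4 libraries of 1 FPKM or more and entered the test. FPKM counts fragments per kilobase of a transcript and is scaled by the library total, so levels of different genes can be set side by side.

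Glycolysis splits glucose into pyruvate in the cytosol and yields ATP and NADH, and lactate dehydrogenase recycles the NADH by turning pyruvate into lactate. Endothelial cells are known to draw most of their ATP from glycolysis, and PFKFB3, which makes the strongest activator of phosphofructokinase, is known to drive vessel sprouting. The pentose phosphate pathway branches off at glucose 6-phosphate, makes NADPH in its oxidative arm and ribose 5-phosphate in its non-oxidative arm.

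RNA was sequenced from endothelial cells sorted by flow cytometry from retinas of C57BL/6 mice at postnatal day 16, with 100 cells in each library. There were 2 libraries of control genotype and 2 labelled Zeb1-CKO in the titles and Zeb1 knockdown in the genotype field. Zeb1 encodes a zinc-finger repressor that binds E-box sequences. The promoter that drives the deletion, the alleles the controls carry and the number of animals behind a library are not stated in the labels used here.

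Depth, read from the steps between low values, came to 20.6 and 11.2 M fragments in control 1 and control 2 and to 21.9 and 16.8 M in Zeb1-CKO 1 and Zeb1-CKO 2. A step then stands for 0.0456 to 0.0894 FPKM in a transcript of 1 kilobase. Zeb1 itself was at 10.7 and 11.1 FPKM in controls, against 8.66 and 7.07 FPKM in Zeb1-CKO libraries, with no overlap but with limma's adjusted p at 0.235. All 12 endothelial markers were above 0 in every library, and their summed level was 3947 to 4708 FPKM in controls and 4496 to 4893 FPKM in Zeb1-CKO libraries. Pericyte markers summed to 2022 to 2493 and 1725 to 1928 FPKM in the same order, so RNA of pericyte markers was present in every library. Marker sums of Müller glia and astrocytes were 381 to 405 and 421 to 474 FPKM, and those of rods and cones 22.8 to 161 and 82.1 to 102 FPKM. In a bulk library, fewer cells of a type and less RNA per cell cannot be told apart.

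The most abundant members were the enzymes of the aldolase, pyruvate kinase and lactate dehydrogenase steps. Pkm, the pyruvate kinase gene outside liver and red cells, was at 215 and 195 FPKM in controls and at 324 and 359 FPKM in Zeb1-CKO libraries. Ldha, which encodes the main lactate dehydrogenase subunit, was at 223 and 186 FPKM in controls and, with Zeb1-CKO, at 233 and 294 FPKM. Aldoa, the ubiquitous aldolase, was at 191 and 165 FPKM in controls, against 193 and 253 FPKM in Zeb1-CKO libraries. In controls the range of Ldha overlapped those of Pkm and Aldoa, while both Pkm values lay above both Aldoa values. In the Zeb1-CKO libraries both Pkm values lay above all values of Ldha and Aldoa, whose ranges overlapped. Each of the 3 lay above 98.8% or more of the fitted genes by mean level.

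A second tier lay between 41.4 and 122 FPKM in every library and held Aldoc, Tpi1, Taldo1, Gpi1, Pgam1, Pgk1, Pdha1 and Ldhb. Pgm2 and Pfkl followed at 22.8 to 38.3 FPKM. A lower tier between 4.10 and 19.2 FPKM held Tkt, Pfkp, Pcx, Gpd2, Rpe, Pfkfb3, G6pdx, Pgd, Pfkm, Hk1, Gapdh, Pgls, Mpc1 and Mpc2. Adpgk, Slc16a3, Pfkfb2 and the second Aldoa entry were fitted at lower mean levels. Fbp1, also fitted, was inside the lower tier in controls, at 9.00 and 7.79 FPKM. In Zeb1-CKO libraries it was below that tier, at 2.24 and 2.82 FPKM. The 7 members below the mean of 1 FPKM were Hk2, Hk3, Pfkfb1, Pfkfb4, Pklr, Rpia and Gpd1, which have values but no test.

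**Figure D1:**
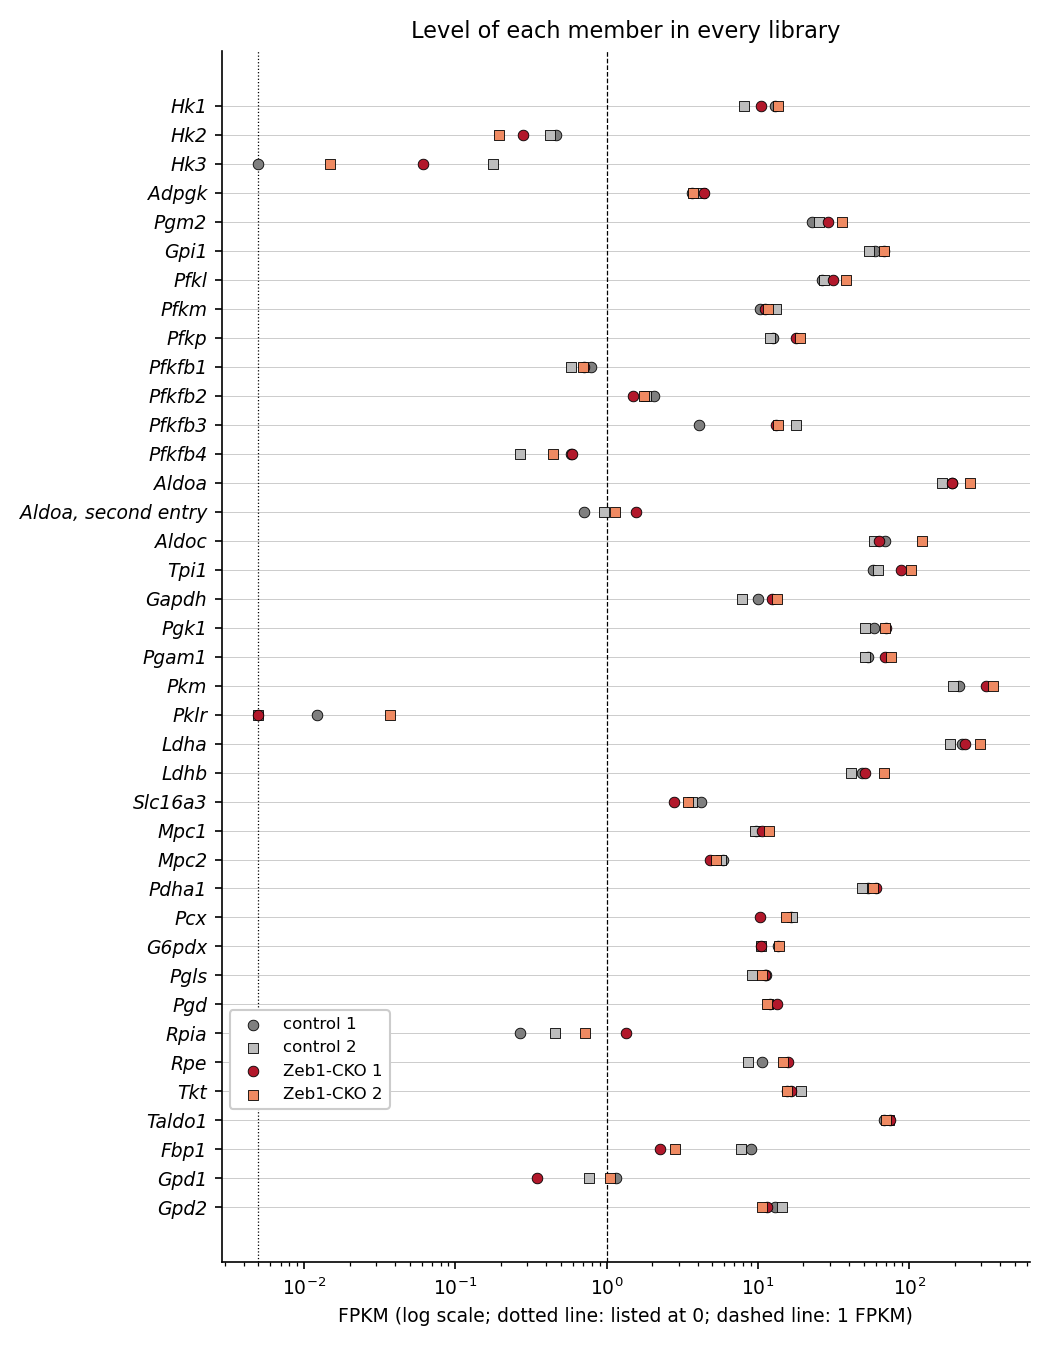
Level of each of the 39 member rows in the 4 libraries, in FPKM on a log axis, ordered along the pathway. Grey symbols are controls, red and orange symbols Zeb1-CKO, points on the dotted line are listed at 0, and Pkm reaches 324 and 359 FPKM in Zeb1-CKO libraries against 215 and 195 FPKM in controls.

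Between genotypes, 1 member passed the test across all genes, and it was lower. Fbp1, which encodes the fructose-bisphosphatase that opposes phosphofructokinase, fell 3.31-fold in Zeb1-CKO cells, as the ratio of mean FPKM. No member was called higher, while 2.23% of the 13651 fitted genes were called higher and 0.901% lower by limma at an adjusted p under 0.05 (3.13% in all). At an unadjusted p under 0.05, 8 of the 32 fitted rows were higher and 1 was lower, beside 10.5% and 7.35% of all fitted genes. In 16 rows both Zeb1-CKO values lay above both controls, and in 6 both lay below, where the shares over all fitted genes were 27.1% and 22.3%. The median log2 fold change of the fitted rows was 0.23 on the log2(FPKM + 1) scale, where the median of all fitted genes was 0.02. The second Aldoa entry passed the level filter only through its Zeb1-CKO values, so it had to be higher, and the counts include it. Without it, 15 of 31 rows had both Zeb1-CKO values above both controls, and the median was 0.21.

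On the trunk from glucose to lactate, without the second Aldoa entry, 14 of 15 fitted genes had a positive log2 fold change, beside 52.8% of all fitted genes. Of these 15, 11 had both Zeb1-CKO values above both controls, beside 27.1%, and the median was 0.36. Outside the trunk, Pgm2, Rpe, Mpc1 and Pdha1 had both Zeb1-CKO values above both controls as well. The 6 fitted pentose phosphate genes had a median of 0.05. Within genotypes the 2 libraries were not equally far from the mean of a gene. Zeb1-CKO 2 held the highest value for 15 of the 32 fitted rows and control 2, the shallowest library, the lowest for 16. Leaving out Zeb1-CKO 2 brought the median of the members to 0.15, and leaving out any other library left it between 0.20 and 0.27.

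**Figure D2:**
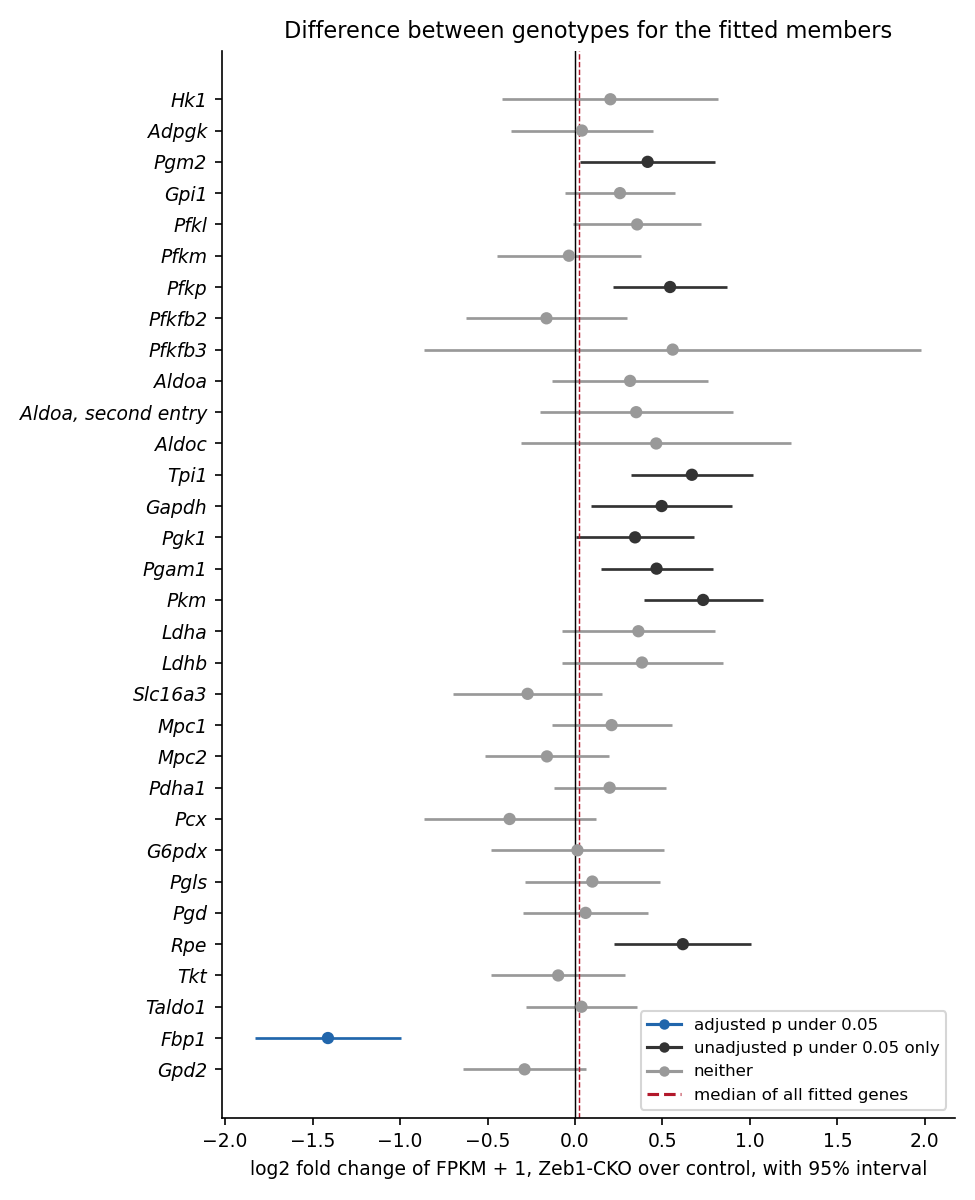
Log2 fold change of FPKM + 1, Zeb1-CKO over control, for the 32 fitted member rows in pathway order, with the 95% interval of the limma fit as lines. Fbp1 at -1.41 is the only row with an adjusted p under 0.05, and the 8 rows in black, with values from 0.34 for Pgk1 to 0.73 for Pkm, have an unadjusted p under 0.05 only.

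At the first step, hexokinase traps glucose as glucose 6-phosphate. Hk1 was at 13.01 and 8.07 FPKM in controls and at 10.5 and 13.6 FPKM in Zeb1-CKO libraries, so the genotypes overlapped. Hk2, the insulin- and hypoxia-responsive isozyme of muscle and of many dividing cells, stayed under 0.466 FPKM in every library. It was at 0.465 and 0.425 FPKM in controls and, with Zeb1-CKO, at 0.279 and 0.193 FPKM, too low for the test. Hk1 made up 93.0% to 98.5% of the summed hexokinase level in each of the 4 libraries. Hk3 was listed at 0 in control 1 and was highest in control 2, at 0.178 FPKM. Adpgk, an ADP-dependent glucokinase, was at 3.68 and 4.18 FPKM in controls, against 4.42 and 3.72 FPKM in Zeb1-CKO libraries.

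Phosphoglucomutase brings glucose 1-phosphate from glycogen and galactose into the pathway. The gene listed as Pgm2, on chromosome 4 (99929414 to 99987294, mm10), carries the name Pgm1 in GENCODE M21 and RefSeq. It was at 22.8 and 25.3 FPKM in controls and at 29.3 and 35.7 FPKM in Zeb1-CKO libraries. Both Zeb1-CKO values lay above both controls, with a log2 fold change of 0.42 (SE 0.16) and limma's adjusted p at 0.248. Gpi1, the isomerase that makes fructose 6-phosphate, was at 59.4 and 54.6 FPKM in controls and, with Zeb1-CKO, at 68.2 and 68.3 FPKM, with an adjusted p of 0.364.

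Phosphofructokinase commits sugar to glycolysis, and its 3 genes did not have the same differences. Pfkp, the platelet-type subunit (chromosome 13, 6579768 to 6648777), was at 12.6 and 11.96 FPKM in controls, against 17.8 and 18.9 FPKM in Zeb1-CKO libraries. Its log2 fold change was 0.54 (SE 0.13), with limma's adjusted p at 0.104. Pfkl, the liver-type subunit and the most abundant, was at 26.6 and 27.3 FPKM in controls and at 31.6 and 38.3 FPKM in Zeb1-CKO libraries, with an adjusted p of 0.291. Pfkm, the muscle-type subunit, was at 10.3 and 13.3 FPKM in controls and, with Zeb1-CKO, at 11.2 and 11.6 FPKM, inside the control range.

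As shares of the summed phosphofructokinase level, Pfkp went from 25.4% and 22.7% in controls to 29.4% and 27.4% in Zeb1-CKO libraries. Pfkm made up 20.8% and 25.3% in controls, against 18.4% and 16.9% with Zeb1-CKO. Pfkl stayed between 52.0% and 55.6% in all 4 libraries. With 2 libraries a group, a two-sided exact permutation test cannot go below p = 0.333, which is what the shares of Pfkp and Pfkm gave. Over the 29 step sums and shares compared, the lowest Benjamini-Hochberg adjusted p of the exact test was 0.483. Exons of Pfkp share 748 of their 13401 bases with exons of Pitrm1 on the other strand, and the library kit named in the labels was not stated to keep strand. Pitrm1 was at 12.998 and 9.85 FPKM in controls, against 12.2 and 12.7 FPKM in Zeb1-CKO libraries.

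The PFKFB enzymes make and break fructose 2,6-bisphosphate, the activator of phosphofructokinase. Pfkfb3 was at 4.10 and 17.9 FPKM in controls and at 13.2 and 13.7 FPKM in Zeb1-CKO libraries. The controls thus spanned both Zeb1-CKO values, and the difference could not be resolved (log2 fold change 0.56, 95% interval -0.86 to 1.98). Without control 1 the log2 fold change was -0.39, and without control 2 it was 1.504, with limma's adjusted p then at 0.0221. Pfkfb3 was 54.4% of the summed PFKFB level in control 1 and 82.4% to 87.0% in the other 3 libraries. Pfkfb2 was at 2.07 and 1.82 FPKM in controls and, with Zeb1-CKO, at 1.49 and 1.78 FPKM, with an adjusted p of 0.705. Pfkfb1 and Pfkfb4 stayed under 0.786 FPKM in every library.

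**Figure D3:**
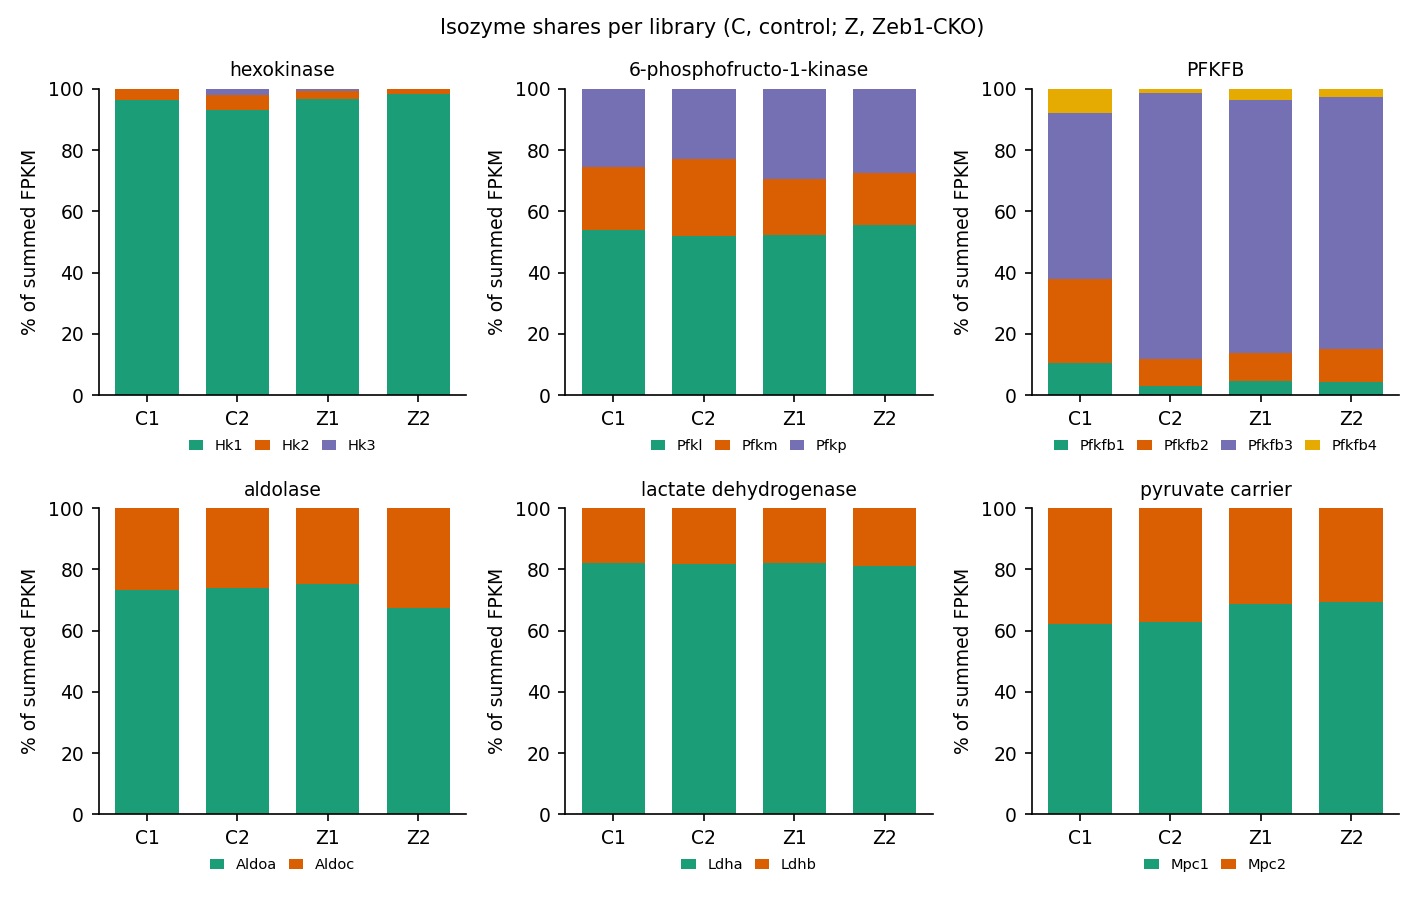
Share of each isozyme in the summed FPKM of its step, in percent, for controls (C1, C2) and Zeb1-CKO libraries (Z1, Z2). Hk1 makes up 93.0% or more of the hexokinases throughout, Pfkp is 29.4% and 27.4% of phosphofructokinase in Z1 and Z2 against 25.4% and 22.7% in C1 and C2, and C1 has the lowest Pfkfb3 share, 54.4%.

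Aldolase splits fructose 1,6-bisphosphate into a pair of triose phosphates. Aldoa had a log2 fold change of 0.32 (SE 0.18) and limma's adjusted p at 0.431, and its highest value, 253 FPKM, was in Zeb1-CKO 2. The second entry of Aldoa spans chromosome 7, 126800790 to 126809108, next to the main gene at 126795234 to 126800751, and stayed between 0.711 and 1.56 FPKM. Aldoc, the brain-type aldolase, was at 69.2 and 58.2 FPKM in controls, against 63.3 and 122 FPKM in Zeb1-CKO libraries. Only Zeb1-CKO 2 lay above the controls for Aldoc, and without it the log2 fold change was -0.0041. Aldoc is also expressed by glia, and the Müller glia and astrocyte markers summed to 421 FPKM in Zeb1-CKO 1 and 474 FPKM in Zeb1-CKO 2. These markers did not all move together. Gfap was at 68.2 and 137 FPKM in Zeb1-CKO 1 and Zeb1-CKO 2. Dkk3, at 92.2 and 107 FPKM, Clu, Slc1a3 and Rlbp1 were also higher in Zeb1-CKO 2, and Glul was at 44.9 and 45.3 FPKM. Apoe, at 134 and 88.9 FPKM, and the less abundant Crym and Pax2 were lower in Zeb1-CKO 2. Between genotypes, 6 of the 9 fitted markers had positive and 3 negative log2 fold changes. The part of glia in the Aldoc value was not tested.

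Triose phosphate isomerase makes both triose phosphates available to the lower trunk. Tpi1 (chromosome 6, 124810586 to 124814296) was at 57.4 and 62.3 FPKM in controls and at 88.9 and 103 FPKM in Zeb1-CKO libraries. Its means were 59.9 ± 3.50 and 95.9 ± 9.92 FPKM (SD, n = 2 each), a 1.60-fold difference. Both Zeb1-CKO libraries lay above both controls, with a log2 fold change of 0.67 (SE 0.14) and limma's adjusted p at 0.0751, past a threshold of 0.10 but not of 0.05. At an adjusted p under 0.10, 2 members, Pkm and Tpi1, were higher, and 4.05% of all fitted genes were. Leaving out each library kept the log2 fold change between 0.56 and 0.77.

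The payoff steps yield ATP and NADH. All 4 of their fitted genes had an unadjusted p under 0.05 with higher values in Zeb1-CKO cells, beside 10.5% of all fitted genes. The 4 include the Gapdh row, which is uncertain because of near-identical copies, as given below. Pkm (chromosome 9, 59656368 to 59679375) had means of 205 ± 14.2 FPKM in controls, against 341 ± 24.2 FPKM in Zeb1-CKO cells (SD, n = 2 each), a 1.67-fold difference. Its log2 fold change was 0.73 (SE 0.14), with limma's adjusted p at 0.0575, just outside the threshold. The call depended on scaling, since Pkm passed after quantile normalization (adjusted p 0.0336) and after rescaling to TPM (0.0479), and over all alternatives its adjusted p ran from 0.0336 to 0.30. Pgam1, phosphoglycerate mutase, was at 53.5 and 50.7 FPKM in controls and, with Zeb1-CKO, at 69.4 and 75.5 FPKM, with a log2 fold change of 0.47 (SE 0.13) and an adjusted p of 0.140. Pgk1, phosphoglycerate kinase, was at 58.8 and 51.0 FPKM in controls, against 70.8 and 68.8 FPKM in Zeb1-CKO libraries, with an adjusted p of 0.273. For Pkm, Pgam1 and Pgk1 no control library reached a Zeb1-CKO value. Pklr, the liver and red-cell pyruvate kinase, did not exceed 0.0369 FPKM.

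Gapdh, which makes the NADH of glycolysis, was listed far below the neighbouring steps. It was at 9.97 and 7.85 FPKM in controls and at 12.4 and 13.4 FPKM in Zeb1-CKO libraries, with a log2 fold change of 0.50 (SE 0.16) and limma's adjusted p at 0.199. By BLAST of transcripts, 101 other genes were near-identical copies of Gapdh, and together they held 112 and 100.0 FPKM in controls but 186 and 199 FPKM in Zeb1-CKO libraries. The Gapdh row thus carried 6.25% to 8.16% of the level of the whole group. A quantifier that splits fragments between such copies cannot place them with confidence, so neither the Gapdh row nor a copy is a certain measure of its own locus.

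Of the copies, 4 had a mean of at least 5 FPKM, a limit chosen after their values were seen, and all 4 are annotated as processed pseudogenes. Over the coding bases aligned, Gm7336 on chromosome 7 had 0 mismatches to transcript Gapdh-202 over 1020 bases. Gm5559 on chromosome 5 and Gm2606 on chromosome 15 had 1 mismatch each over 1002 bases, and Gm13394 on chromosome 2 had 1 over 1000. The 41 bases around each mismatch, from GENCODE M21 transcripts and with the differing base in capitals, show how little separates these rows. Positions count from 1 at the first coding base of Gapdh-202, and the substitutions are T463A for Gm5559, A424C for Gm13394 and C661T for Gm2606.
Gapdh beside Gm5559: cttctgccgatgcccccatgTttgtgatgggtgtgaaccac
Gm5559: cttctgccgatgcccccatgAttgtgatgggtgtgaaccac
Gapdh beside Gm13394: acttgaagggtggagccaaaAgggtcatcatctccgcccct
Gm13394: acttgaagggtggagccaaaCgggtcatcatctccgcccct
Gapdh beside Gm2606: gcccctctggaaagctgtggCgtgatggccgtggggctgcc
Gm2606: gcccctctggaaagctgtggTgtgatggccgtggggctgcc

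The copies did not share 1 pattern across the libraries. Gm13394 passed the level filter and the limit of 5 FPKM only through its Zeb1-CKO values. Gm13394 was at 0.963 and 0.456 FPKM in controls and, with Zeb1-CKO, at 53.5 and 76.7 FPKM, a log2 fold change of 5.27 (SE 0.24) with limma's adjusted p at 0.000974, and the call held without each library in turn (0.00127 to 0.0236). Gm5559 was at 41.8 and 34.8 FPKM in controls, against 48.5 and 44.6 FPKM in Zeb1-CKO libraries, and Gm7336 at 34.1 and 26.2 FPKM and at 43.0 and 33.9 FPKM. Gm2606 was at 7.48 and 8.06 FPKM in controls and at 13.8 and 11.9 FPKM in Zeb1-CKO libraries, with an adjusted p of 0.0850. Gm5559 and Gm7336 did not pass, at adjusted p values of 0.401 and 0.423. Gapdh summed with all its copies rose from 115 ± 10.2 to 205 ± 9.96 FPKM (SD, n = 2 each), with a log2 fold change of 0.83 (SE 0.14) and limma's adjusted p at 0.0406. That call ended when any 1 library was left out (adjusted p 0.0752 to 0.187). Without Gm13394 the sum was 121 and 107 FPKM in controls, against 145 and 136 FPKM in Zeb1-CKO libraries, a 1.23-fold difference of the means, so that 1 row held most of the difference of the sum.

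**Figure D4:**
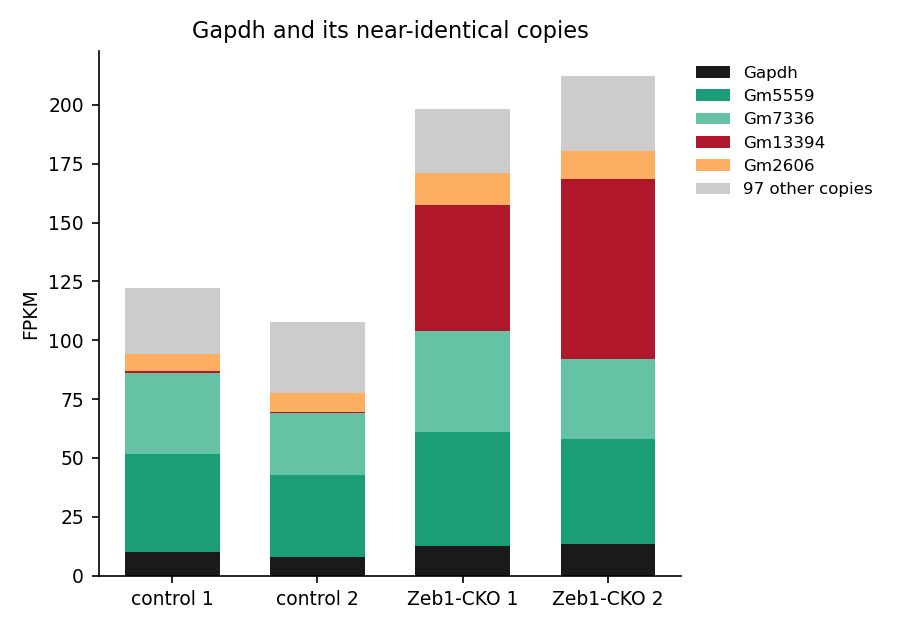
FPKM of Gapdh, its 4 most abundant near-identical copies and the other 97 copies summed, stacked for each library. The black Gapdh segment is 7.85 to 13.4 FPKM, and the red Gm13394 segment is under 1 FPKM in both controls but 53.5 and 76.7 FPKM with Zeb1-CKO.

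Among the other trunk members, copies weighed little in level. Pkm held 97.1% to 97.3% of its sum with the pseudogene Gm6560, which differed from transcript Pkm-201 at 24 of 1591 aligned coding bases. Tpi1 held 94.7% to 98.2%, and Pgam1, Pgk1, Ldha and Ldhb 98.4% or more. With copies added, limma's adjusted p was 0.0573 for Pkm and 0.0835 for Tpi1. Pkm also shares 767 of its 5001 exon bases with Gm49759 on the same strand. Gm49759 was at 6.56 and 7.56 FPKM in controls, against 10.7 and 8.27 FPKM in Zeb1-CKO libraries.

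Both lactate dehydrogenase genes had higher values in Zeb1-CKO cells, neither past the test, at a near-constant ratio of subunits. Ldha had a log2 fold change of 0.36 (SE 0.18), and Ldhb, the heart-type subunit, one of 0.38 (SE 0.19). Ldhb was at 49.0 and 41.4 FPKM in controls and, with Zeb1-CKO, at 51.2 and 68.2 FPKM. Limma's adjusted p was 0.355 for both genes, and in both the larger value came from Zeb1-CKO 2. The Ldhb share of the summed subunits lay between 18.0% and 18.8% in all 4 libraries. Slc16a3, an exporter of lactate also called MCT4, was at 4.24 and 3.67 FPKM in controls, against 2.79 and 3.43 FPKM in Zeb1-CKO libraries. Both Zeb1-CKO values of Slc16a3 lay below both controls, opposite to the lactate dehydrogenase genes, with an adjusted p of 0.476.

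Pyruvate enters mitochondria through the carrier made of MPC1 and MPC2. Mpc1 was at 9.70 and 9.57 FPKM in controls and at 10.7 and 11.9 FPKM in Zeb1-CKO libraries, and Mpc2 at 5.90 and 5.67 FPKM and at 4.86 and 5.28 FPKM. The 2 subunits thus differed in direction, neither past the test (adjusted p 0.496 and 0.620). Mpc1 made up 62.2% and 62.8% of the summed carrier level in controls, against 68.8% and 69.3% with Zeb1-CKO. The Mpc1 row is uncertain, since the pseudogene Mpc1-ps on chromosome 12 matched its coding sequence over 261 bases with 0 mismatches and was listed at 70.0 and 56.2 FPKM in controls and, with Zeb1-CKO, at 53.6 and 72.2 FPKM. With copies added, the log2 fold change of Mpc1 was 0.02.

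Pdha1, a subunit of pyruvate dehydrogenase, was at 53.6 and 48.9 FPKM in controls, against 60.2 and 57.7 FPKM in Zeb1-CKO libraries, with limma's adjusted p at 0.489. Pcx, pyruvate carboxylase, was at 16.5 and 16.7 FPKM in controls and at 10.4 and 15.2 FPKM in Zeb1-CKO libraries. Its lower mean came mostly from Zeb1-CKO 1, without which the log2 fold change was -0.12, and its adjusted p was 0.395. None of the 13 fitted genes of the list of pyruvate dehydrogenase subunits, their kinases and malic enzymes was called. In that list Me1, the cytosolic malic enzyme, had the smallest p, with an adjusted value of 0.129 and a log2 fold change of 0.72.

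In the oxidative arm of the pentose phosphate pathway the genotypes overlapped for all 3 genes. G6pdx, glucose 6-phosphate dehydrogenase, was at 13.5 and 10.4 FPKM in controls and, with Zeb1-CKO, at 10.4 and 13.8 FPKM. Its log2 fold change was 0.01 (95% interval -0.48 to 0.51), and its sign changed with the scaling. G6pdx shares 418 of its 3080 exon bases with Ikbkg on the other strand. Ikbkg was at 0.564 and 0.486 FPKM in controls, against 2.15 and 2.72 FPKM in Zeb1-CKO libraries. Pgls, the lactonase, was at 11.3 and 9.11 FPKM in controls, against 11.2 and 10.7 FPKM in Zeb1-CKO libraries. Pgd, the second NADPH-making dehydrogenase, was at 11.96 and 11.7 FPKM in controls and at 13.4 and 11.4 FPKM in Zeb1-CKO libraries. The interval of Pgls was -0.29 to 0.49 and that of Pgd -0.30 to 0.42.

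The non-oxidative arm held 1 gene with an unadjusted p under 0.05. Rpe, the epimerase that makes xylulose 5-phosphate (chromosome 1, 66700831 to 66719805), was at 10.7 and 8.58 FPKM in controls and, with Zeb1-CKO, at 15.8 and 14.7 FPKM. Its means were 9.65 ± 1.51 and 15.3 ± 0.720 FPKM (SD, n = 2 each), a log2 fold change of 0.62 (SE 0.16) with limma's adjusted p at 0.118. Rpe shares 558 exon bases with Kansl1l on the other strand, which was at 3.70 and 2.57 FPKM in controls, against 3.24 and 2.39 FPKM in Zeb1-CKO libraries. Rpia, the isomerase that makes ribose 5-phosphate, was at 0.269 and 0.455 FPKM in controls and at 1.35 and 0.723 FPKM in Zeb1-CKO libraries, non-overlapping but below the level needed for a test.

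Tkt and Taldo1 carry sugar carbon back to glycolysis. Tkt, transketolase, was at 15.6 and 19.2 FPKM in controls and, with Zeb1-CKO, at 16.6 and 15.6 FPKM. Taldo1, transaldolase, was the most abundant pentose phosphate gene, at 68.0 and 73.1 FPKM in controls, against 74.5 and 70.4 FPKM in Zeb1-CKO libraries. Their log2 fold changes were -0.10 (95% interval -0.48 to 0.29) and 0.04 (-0.28 to 0.35). Among 17 fitted rows of NADPH and glutathione genes, 0 were called by limma. At an unadjusted p under 0.05, 2 were higher and 1 lower, beside 10.5% and 7.35% of all fitted genes. The smallest p there belonged to Cat, catalase, at 109 and 103 FPKM in controls and at 69.3 and 72.0 FPKM in Zeb1-CKO libraries, with an adjusted p of 0.0774.

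Fbp1 was the member with the lowest p. Fructose-bisphosphatase removes the phosphate that phosphofructokinase adds, a step of gluconeogenesis. Fbp1 (chromosome 13, 62864753 to 62888282) was at 9.00 and 7.79 FPKM in controls and, with Zeb1-CKO, at 2.24 and 2.82 FPKM. Both Zeb1-CKO values were far below both controls, and the gap between genotypes exceeded the spread inside each. Its means were 8.39 ± 0.851 and 2.53 ± 0.412 FPKM (SD, n = 2 each). The log2 fold change was -1.41 (SE 0.17, 95% interval -1.83 to -0.996), with limma's adjusted p at 0.0173. The size hardly moved when a library was left out, from -1.53 to -1.29, but the call ended without control 1 (adjusted p 0.0541), without Zeb1-CKO 1 (0.118) and without Zeb1-CKO 2 (0.0901), and it held without control 2 (0.0369). It also ended with no level filter (0.110).

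Summed markers of 5 other cell types (microglia and myeloid cells, red cells, smooth muscle, pericytes and pigment epithelium) were also lower in both Zeb1-CKO libraries than in both controls. The 12 microglia and myeloid markers summed to 37.1 and 102 FPKM in controls and to 28.5 and 14.2 FPKM in Zeb1-CKO libraries. All 9 fitted ones had negative log2 fold changes with 0 called. Of these, Cx3cr1, Csf1r and C1qc passed the level filter only through their control values. Of the 12, 11 had a lower mean in Zeb1-CKO libraries. P2ry12, too low for the test, was higher, at 0.615 and 0.441 FPKM in controls against 0.861 and 0.993 FPKM with Zeb1-CKO. The most abundant of the 12 were Lyz2, at 9.27 and 18.3 FPKM in controls, against 14.1 and 1.48 FPKM in Zeb1-CKO libraries, and Tyrobp, at 5.12 and 19.1 FPKM and at 1.86 and 1.67 FPKM. The marker Aif1 was listed at 0 in Zeb1-CKO 1. Between the 2 controls, the myeloid and red-cell sums were higher in control 2. Fbp1 and the smooth-muscle, pericyte and pigment epithelium sums were higher in control 1. Red-cell markers summed to 2730 and 3299 FPKM in controls and to 746 and 1410 FPKM in Zeb1-CKO libraries, led by Hba-a1 and Hbb-bs, with 0 of 5 fitted called. Smooth-muscle markers, led by Myl9 and Acta2, summed to 560 and 419 FPKM in controls and to 249 and 326 FPKM in Zeb1-CKO libraries. Of the 5 fitted, Tagln was called lower, at 16.6 and 14.8 FPKM in controls, against 7.85 and 8.57 FPKM with Zeb1-CKO (limma's adjusted p 0.0429). Over all fitted genes, 0.901% were called lower. All 10 pericyte markers, led by Rgs5 and Higd1b, had negative log2 fold changes with 0 called. The 7 pigment epithelium markers, led by Rdh5 and Best1, summed to only 5.91 and 5.44 FPKM in controls, against 4.74 and 4.17 FPKM with Zeb1-CKO. Of the 7, 5 had a lower mean with Zeb1-CKO. Of the 2 fitted, 1 had a positive and 1 a negative log2 fold change, with 0 called. At an unadjusted p under 0.05 by limma, 6 of the 9 fitted myeloid and 5 of the 5 fitted red-cell markers were lower. The counts were 4 of 5 for smooth muscle, 4 of 10 for pericytes and 0 of 2 for pigment epithelium, beside 7.35% of all fitted genes. The 6 myeloid ones include Csf1r and C1qc. The part of these cell types in the Fbp1 difference was not tested.

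**Figure D5:**
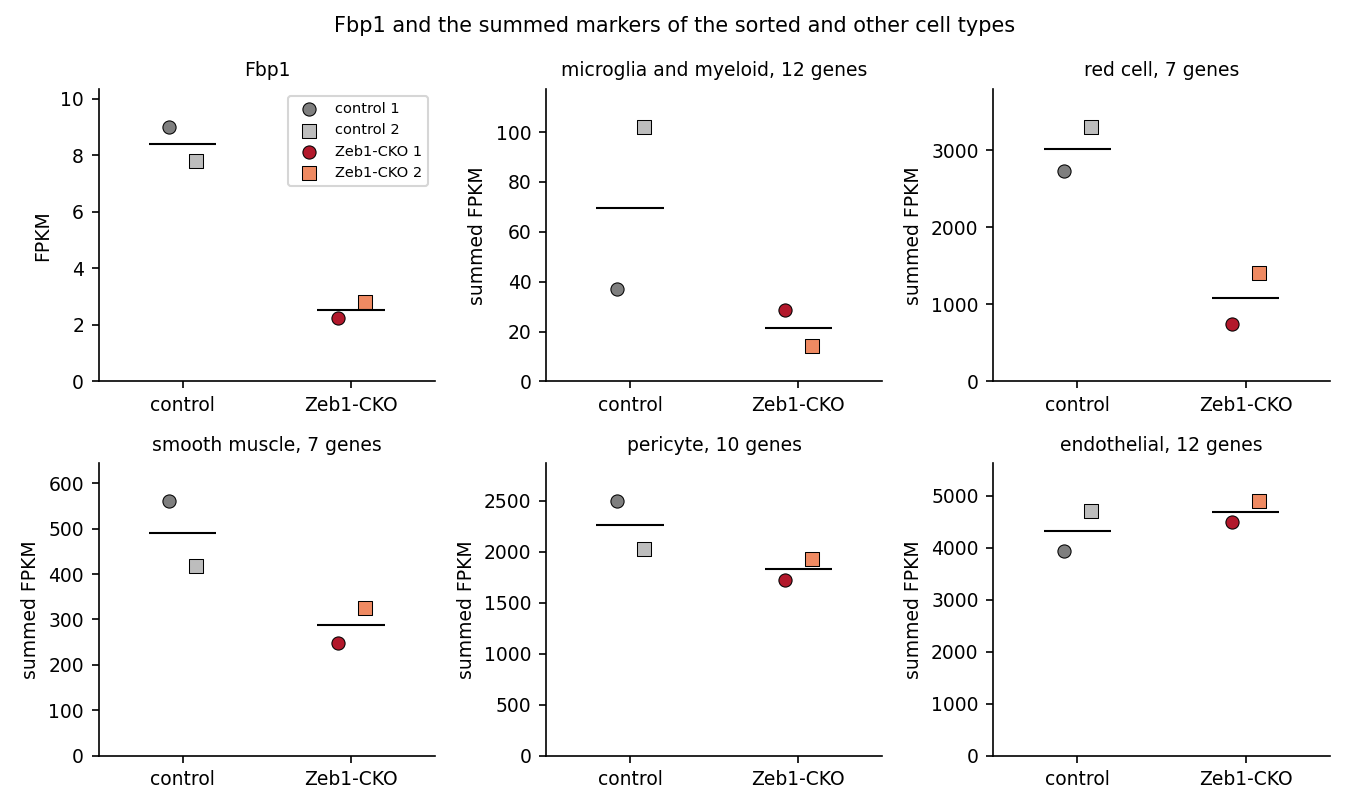
Fbp1 in FPKM and the summed FPKM of marker genes of 5 cell types for each library, with axes from 0 and the group mean as a line. Fbp1 is 9.00 and 7.79 FPKM in controls, against 2.24 and 2.82 FPKM in Zeb1-CKO libraries, and the myeloid, red-cell, smooth-muscle and pericyte sums are lower there too, while the endothelial sum overlaps.

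The glycerol phosphate shuttle moves the electrons of cytosolic NADH into mitochondria. Gpd2, its mitochondrial enzyme, was at 12.9 and 14.5 FPKM in controls and at 11.5 and 10.6 FPKM in Zeb1-CKO libraries. Both Zeb1-CKO values lay below both controls, with a log2 fold change of -0.29 (SE 0.14) and limma's adjusted p at 0.363. Gpd1, its cytosolic partner, was at 1.16 and 0.771 FPKM in controls and, with Zeb1-CKO, at 0.344 and 1.06 FPKM.

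Of 12 listed genes for transport of glucose and lactate across the plasma membrane, 6 were fitted. Of these, 3 had positive and 3 negative log2 fold changes, and 0 were called by limma. Among the positive ones, Slc2a10 passed the level filter only through its Zeb1-CKO values. At an unadjusted p under 0.05, 1 was higher and 1 lower, beside 10.5% and 7.35% of all fitted genes. Slc2a1, the glucose transporter GLUT1 of the blood-retina barrier, was at 808 and 892 FPKM in controls, against 729 and 713 FPKM in Zeb1-CKO libraries, with an adjusted p of 0.440. Bsg, basigin, the chaperone that brings lactate transporters to the membrane, was at 1817 and 1556 FPKM in controls and at 856 and 967 FPKM in Zeb1-CKO libraries. Its log2 fold change was -0.89 (SE 0.16), with limma's adjusted p at 0.0510, just outside the threshold.

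Genes that branch from glycolytic intermediates held 3 calls, all higher, among 24 fitted, where 2.23% of all fitted genes were called higher and 0.901% lower. Phgdh, which draws 3-phosphoglycerate into serine synthesis, rose from 10.3 and 9.68 FPKM to 42.0 and 47.3 FPKM, 4.47-fold, with limma's adjusted p at 0.00276. Sord, sorbitol dehydrogenase of the polyol pathway, rose from 6.76 and 6.20 FPKM to 17.8 and 21.4 FPKM, 3.02-fold, with an adjusted p of 0.0120. Gys1, the glycogen synthase of most tissues outside liver, rose from 2.83 and 3.64 FPKM to 6.98 and 7.21 FPKM, 2.19-fold, with an adjusted p of 0.0481. In all 3 genes the genotypes did not overlap. The call of Phgdh held without each library in turn (adjusted p 0.00754 to 0.0402). That of Sord ended without Zeb1-CKO 1 (0.0722) or Zeb1-CKO 2 (0.0944), and that of Gys1 without any 1 library (0.0661 to 0.233). The median log2 fold change of this list was 0.08.

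Of 15 fitted regulators of glycolysis, 12 had negative and 3 positive log2 fold changes, beside 52.8% positive over all fitted genes. The list holds Zeb1 itself, the targeted gene, which is 1 of the 12 by design. Of the 3, Mlxip passed the level filter only through its Zeb1-CKO values. In this list 1 gene was called lower, beside 0.901%. Klf2, a flow-induced factor known to repress PFKFB3 in endothelium, fell from 143 and 146 FPKM to 77.1 and 79.1 FPKM, 1.86-fold, with limma's adjusted p at 0.0255. Epas1, which encodes HIF-2α, was at 275 and 271 FPKM in controls and, with Zeb1-CKO, at 236 and 239 FPKM, with an adjusted p of 0.471. Of 17 targets of hypoxia-inducible factors outside glycolysis, 1 was called in each direction, beside 2.23% higher and 0.901% lower over all fitted genes. Egln3 rose 3.11-fold (adjusted p 0.0320) and Ddit4 fell 1.79-fold (0.0411). The median for that list was 0.34 on the log2 scale. Car9 and P4ha2 of that list passed the level filter only through their Zeb1-CKO values, so they had to be higher, and the median includes them. The calls of Klf2, Egln3, Ddit4 and the smooth-muscle gene Tagln each ended when any 1 library was left out, at adjusted p values of 0.0519 to 0.195. With no level filter the calls of Klf2, Egln3, Ddit4, Tagln, Sord and Gys1 ended too (adjusted p 0.0714 to 0.210), while those of Phgdh and Gm13394 held.

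Promoter windows, from 250 bases before to 50 after a start site, were found for 37 of the 38 members in RefSeq (GRCm38.p6). They were searched on both strands for the core of the hypoxia response element, ACGTG or GCGTG, and for the E-box CACCTG that ZEB factors bind. On the other strand the core reads CACGT or CACGC and the E-box reads CAGGTG. A core was present in 28 of the 37 windows (75.7%), in 43.8% of all 32851 windows and in 64.0% of the 9234 windows of fitted genes. The E-box was present in 6 of 37 (16.2%), in 20.2% of all windows and in 16.7% of those of fitted genes. A match is only a match of letters, and overlapping cores on the 2 strands were counted at both positions.

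Among the 9 members with an unadjusted p under 0.05, the window of Fbp1 held an E-box and no core, that of Rpe an E-box and no core, that of Pgam1 3 cores and that of Pgk1 2 cores. The windows of Pfkp, Gapdh and Pgm2 held 4, 3 and 2 cores and no E-box, and those of Tpi1 and Pkm neither motif. The other 4 members with an E-box in the window were Hk1, Mpc2, Pgd and Gpd2. The 250 bases before the start of these 4 genes are shown because they span the called member and members with higher values, with E-boxes and cores in capitals, each read 5′ to 3′ on the strand of its gene. They lie at chr13:62888283-62888532 (minus strand, Fbp1), chr1:66700581-66700830 (plus, Rpe), chr19:41911621-41911870 (plus, Pgam1) and chrX:106186850-106187099 (plus, Pgk1).
Fbp1: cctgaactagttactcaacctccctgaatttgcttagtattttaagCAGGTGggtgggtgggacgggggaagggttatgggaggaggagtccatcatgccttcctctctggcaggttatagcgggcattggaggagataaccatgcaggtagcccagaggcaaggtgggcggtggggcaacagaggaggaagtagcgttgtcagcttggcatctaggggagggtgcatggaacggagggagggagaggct
Rpe: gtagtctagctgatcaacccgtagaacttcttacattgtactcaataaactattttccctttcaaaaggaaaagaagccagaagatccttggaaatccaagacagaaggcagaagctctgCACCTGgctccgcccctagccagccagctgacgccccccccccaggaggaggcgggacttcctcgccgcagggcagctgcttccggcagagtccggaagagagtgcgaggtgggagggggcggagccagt
Pgam1: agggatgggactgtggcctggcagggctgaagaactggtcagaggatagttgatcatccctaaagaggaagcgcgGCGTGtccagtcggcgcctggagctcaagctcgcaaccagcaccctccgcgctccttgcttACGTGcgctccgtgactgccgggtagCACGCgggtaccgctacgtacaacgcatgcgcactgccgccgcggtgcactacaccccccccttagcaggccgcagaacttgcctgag
Pgk1: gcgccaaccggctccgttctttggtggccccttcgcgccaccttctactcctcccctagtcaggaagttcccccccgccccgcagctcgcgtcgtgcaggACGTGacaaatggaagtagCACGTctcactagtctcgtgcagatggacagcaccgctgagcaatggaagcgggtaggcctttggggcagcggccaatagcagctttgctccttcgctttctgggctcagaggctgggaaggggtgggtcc

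The E-box of Fbp1 starts 204 bases before the start site and reads CAGGTG on the strand of the gene. That of Rpe starts 130 bases before and reads CACCTG. Fbp1 was the member called lower, and Rpe had higher values in Zeb1-CKO cells but was not called (limma's adjusted p 0.118). The other 4 members with an E-box, none called, had log2 fold changes of 0.20 (Hk1), 0.06 (Pgd), -0.16 (Mpc2) and -0.29 (Gpd2). Whether these E-boxes bear on the differences was not tested.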

How the data were processed

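Per the labels' protocols, RNA of 100 sorted cells was amplified with the SMART-Seq v4 kit, sheared and sequenced in pairs. The submitters' processing notes name Trimmomatic 0.36, HISAT2 2.1.0, StringTie 1.3.3 and build mm10, with neither settings nor annotation. The authors deposited FPKM per gene; that unit is inferred from the values and tools, as no header states it. Of 54446 gene identifiers, 53229 matched GENCODE M21 with version and start, and spans are given for those.

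From these values, limma 3.58.1 (R 4.3.3) was fitted with an intensity trend to log2(FPKM + 1) of the 13651 genes whose mean reached 1 FPKM, with genotype as the only term and Benjamini-Hochberg adjustment over all of them (threshold 0.05). Fold changes on this scale understate those of low genes. Folds in the text are ratios of mean FPKM. Nothing ties each library to its own animal; the p-values then reflect only the scatter of these 4 samples, part or all of which may be technical. In a test on simulated data for this comparison over 13651 genes, 12 of 100 genes changed by 1 on the log2 scale and 83 of 100 changed by 2 were called. Depth was estimated from the steps of low values in transcripts longer than 600 bases, of which 17.2% to 21.7% lay within 0.02 of a whole step (4% at random). Amplified reads without molecular identifiers are not independent molecules.

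The members and the gene lists were chosen with earlier results of these data known, so no p-value was adjusted over a list and no list was tested as a set. All members are named; from other lists, called genes or the gene with the smallest p, the 2 most abundant markers of a cell type, and Zeb1. Slc2a1, Epas1, Aif1, the pseudogene copies and the genes that overlap members were added after their values were seen. So were Slc16a1 and the Müller glia and astrocyte markers beyond the 2 most abundant. Copies were found with BLAST 2.17.0, at 95% identity or more over at least 80% of the shorter transcript and at least 200 bases. Summed levels and shares were compared by exact permutation. Alternatives were other pseudocounts, filters, scalings, variance models, replicate blocks and leaving out each library.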

Additional observations from a re-analysis of the deposited data

How the results depend on the processing

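All 4 libraries gave 427 called genes. There were 85 with no level filter, 257 at a mean of 5 FPKM and 66 to 281 with 1 library left out, where the lone library of a genotype is assumed to vary like the others. The count of called members, 1 with all libraries, was 0 with no filter, 2 after quantile normalization, after rescaling to TPM (Fbp1 and Pkm in both) and with copies added (Fbp1 and Gapdh), 3 at an adjusted p under 0.10 (Fbp1, Pkm and Tpi1) and 0 to 2 with 1 library left out. Deviations of same-numbered libraries correlated at -0.118. With 2 libraries a group, this cannot tell whether the numbers pair the samples. A replicate block gave 193 called genes and the same count of members. The crossed pairing, chosen after seeing the data, gave 455 called genes and 2 members. The median of the members was 0.1516 to 0.2706 with 1 library left out. The depth of control 2 limits its low values most.

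Of 572 values of single members over 18 alternatives, 547 kept direction and side of the threshold and 16 changed sign, 13 of them on leaving out a library; the cause was not tested. G6pdx changed sign when scaled by the median ratio (-0.0153), by a trimmed mean (-0.0149) or by quantiles (-0.0375). On leaving out a library, log2 fold changes ran from -0.059 to 0.1381 for Adpgk, -0.0137 to 0.0879 for Taldo1, -0.3865 to 1.5038 for Pfkfb3, -0.2383 to 0.0465 for Tkt, -0.1726 to 0.2008 for G6pdx, -0.0406 to 0.239 for Pgls, -0.2032 to 0.1338 for Pfkm, -0.1113 to 0.5162 for Hk1, -0.0438 to 0.165 for Pgd and -0.0041 to 0.933 for Aldoc. Differences of step sums in FPKM ran from -0.7441 to 3.556 for hexokinase, -4.257 to 8.784 for PFKFB and -1.296 to 4.237 for the oxidative arm. Differences of shares in percentage points ran from -0.6977 to 2.738 for Pfkl, -4.51 to 28.1 for Pfkfb3, -1.638 to 6.185 for Aldoc and -0.1368 to 0.6893 for Ldhb.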

Other observations

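The citric acid cycle held 0 called genes among 21 fitted, with 2 higher and 0 lower at an unadjusted p under 0.05 by limma, beside 10.5% and 7.35% of all fitted genes, and a median log2 fold change of 0.09. The smallest p belonged to Idh2, the mitochondrial NADP-dependent isocitrate dehydrogenase, at 39.2 and 37.7 FPKM in controls and at 48.1 and 58.4 FPKM in Zeb1-CKO libraries (adjusted p 0.196). Both Zeb1-CKO values of Idh2 lay above both controls.

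Of 20 cell-cycle genes, 19 had positive log2 fold changes, beside 52.8% of all fitted genes, with a median of 0.45. At an unadjusted p under 0.05, 11 were higher, beside 10.5%. Mcm3, which encodes part of the helicase that opens replication origins, rose from 8.14 and 8.04 FPKM to 16.4 and 16.6 FPKM, with limma's adjusted p at 0.0255. It was the only one called, beside 2.23% of all fitted genes called higher. That call ended when any 1 library was left out (0.0733 to 0.151).

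Among 14 fitted genes for other isozymes of these pathways, 0 were called and 1 was higher at an unadjusted p under 0.05, beside 10.5%. That was Pgam5, a mitochondrial phosphatase of the phosphoglycerate mutase family, at 13.6 and 11.8 FPKM in controls and at 16.6 and 22.6 FPKM in Zeb1-CKO libraries, with an adjusted p of 0.198.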
